A study of Mus musculus with 2 samples.

Results

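The granulocyte-like cells of a mouse acute myeloid leukemia (AML) were 741 of 7411 single cells with 500 or more detected genes, out of 8309 deposited cells. They were chosen from measured values. In each cell the transcripts of 6 granulocyte genes (Ltf, Mmp9, Ifitm6, C5ar1, G0s2 and Lrg1) were summed and divided by all transcripts of that cell, and the 10% of cells with the highest share were kept, with both libraries pooled. Transcripts were counted as unique molecular identifiers (UMIs), so each count stands for 1 captured RNA molecule. The study asked how loss of Kat2a, a histone acetyltransferase, alters MLL-AF9 leukemia cells. Donor mice were Kat2a Flox/Flox and either Mx1-Cre -/- (WT) or Mx1-Cre+/- (KO), where Cre recombinase is driven by the interferon-responsive Mx1 promoter, and both genotypes received pIpC, the inducer of that promoter. Marrow was taken 4 to 6 weeks later, depleted of lineage-positive cells, transduced with a retrovirus carrying the MLL-AF9 fusion and a YFP reporter, and injected into lethally irradiated recipients. Frozen marrow of 5 WT and 4 KO terminal leukemias was thawed and pooled by genotype, and live single YFP+ cells were sorted into 1 droplet library per genotype. All cells were therefore sorted for the fusion's reporter and come from pIpC-treated donors of the floxed Kat2a strain, with the locus excised where Cre was present. Differences between leukemias within a pool cannot be seen.

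Neutrophils mature in the marrow in ordered steps. Promyelocytes make the serine proteases and myeloperoxidase of the primary granules, myelocytes and metamyelocytes make the secondary granule proteins lactoferrin, cathelicidin and lipocalin, and later cells make the gelatinases of the tertiary granules and the receptors of blood neutrophils. Cell division stops as the secondary granules fill. MLL-AF9 leukemia cells usually resemble granulocyte-monocyte progenitors, and part of each leukemia carries transcripts of more mature myeloid cells.

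The 2 libraries held 11669427 UMIs (labelled WT, 3866 kept cells) and 7920256 UMIs (labelled KO, 3545 kept cells). With 1 library per genotype there is no replicate error. No p-value is given, and intervals in brackets are 95% counting intervals that cover counting error alone. The targeted gene did not check the labels. Kat2a was counted at 13.2 counts per 1000000 UMIs (CPM) in the other kept cells labelled WT and at 99.7 CPM in those labelled KO, against the direction of the labels, and only 2 and 5 Kat2a UMIs fell in granulocyte-like cells. By the study's methods, the excised locus still makes a shortened transcript that keeps its last exon, which a 3′ assay counts, so these reads check nothing about the excision. The libraries are named by their labels throughout. The libraries shared 28 barcode sequences, which touched 4 granulocyte-like cells, and leaving them out gave 140 higher and 1230 lower genes in place of the 141 and 1231 described here. The Y-linked gene Eif2s3y stood at 9.33 CPM in granulocyte-like cells labelled WT and 102 CPM in those labelled KO (12.3 and 89.4 CPM in the other kept cells), so the pools also differ in sex-linked transcripts.

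The granulocyte-like cells made up 13.8% of the kept cells labelled WT (535 of 3866, exact Clopper-Pearson interval 12.8 to 14.97%) and 5.81% of those labelled KO (206 of 3545, 5.06 to 6.63%). The labelled WT share was thus 2.38-fold higher (log2 KO over WT -1.25 [-1.48, -1.03]). The size of this gap followed the cell filter. Among the cells left out for detecting under 500 genes, the limit of the rule was met by 149 of 203 labelled WT (73.4%, 66.8 to 79.3%) and by 334 of 695 labelled KO (48.1%, 44.3 to 51.9%). Over all deposited cells, at the same limit, the shares were 16.8% (684 cells) and 12.7% (540 cells), a 1.32-fold gap. Cells with few genes were thus richer in the rule genes in both libraries, and more of them came from the library labelled KO.

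Depth moved with membership as well. Granulocyte-like cells had a median of 1841 (WT) and 1583 (KO) UMIs and of 669 and 604 genes, against 2834 and 1910 UMIs and 1128 and 837 genes in the other kept cells. Among kept cells of 1000 to under 1500 UMIs, 25.0% of those labelled WT and 9.30% of those labelled KO were granulocyte-like. At 1500 to under 2500 UMIs the shares were 24.9% and 6.55%, and at 2500 UMIs or more 4.61% and 2.59%. The labelled WT share was higher in each of these 3 depth ranges. After each cell was thinned to 1000 UMIs before choosing, the shares were 12.6% and 7.07%, a 1.78-fold gap.

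**Figure D1:**
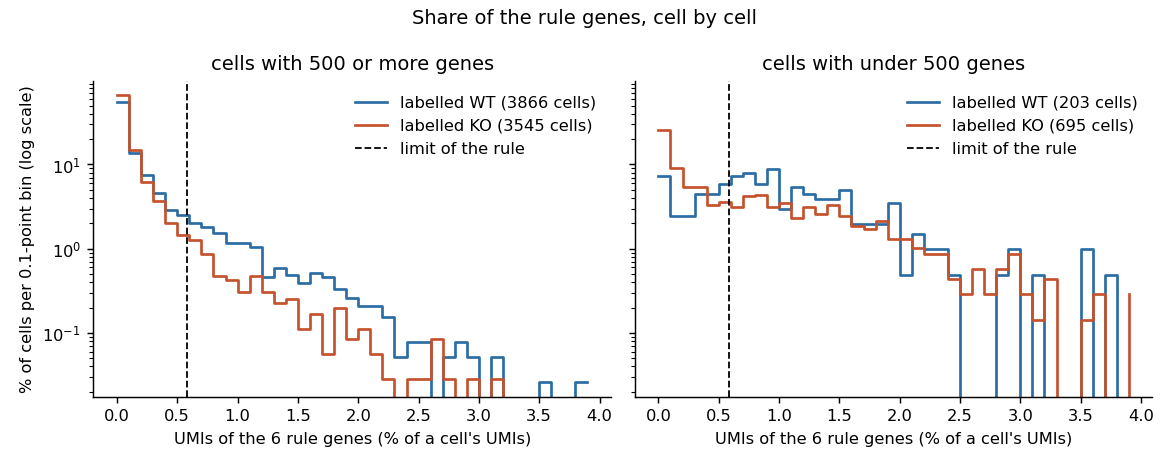
Percent of cells (log axis) against the share of a cell's UMIs that came from the 6 rule genes, in bins of 0.1 percentage points, for cells with 500 or more genes (left) and under 500 genes (right), 1 line per library. The dashed line is the limit of the rule, and there is no gap in the distributions where it falls.

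The limit fell in a continuous distribution. The last cell inside had a share of 0.584368% and the next outside 0.584036%. Within 10% of the limit lay 79 granulocyte-like cells above and 88 other cells below, while 270 granulocyte-like cells (36.4%) had at least 2 times the limit. The median share was 0.982% in the cells labelled WT and 0.922% in those labelled KO, and no granulocyte-like cell held fewer than 6 UMIs of the rule genes. The group is a range along a score and has no natural edge.

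The rule genes describe how the cells were chosen and support nothing further. Ifitm6, an interferon-induced transmembrane protein, gave 40.0% of their rule-gene UMIs among cells labelled WT and 31.6% among those labelled KO. Ltf, which encodes lactoferrin, gave 23.0% and 40.5%, and Lrg1, a secreted glycoprotein, 19.9% and 14.7%. Ltf was the leading rule gene in 22.8% of granulocyte-like cells labelled WT and in 51.0% of those labelled KO, and an Ltf UMI was seen in 59.1% and 85.4%. The libraries thus filled the same group with different mixtures of the 6 genes. At least 4 of the 6 genes were detected in 76.3% and 56.3% of the cells.

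When each rule gene was left out and cells were chosen by the other 5, the gene left out was still higher in the chosen cells of both libraries. Ltf was 20.4-fold (WT) and 17.6-fold (KO) higher, and Mmp9, the gelatinase of tertiary granules, 12.4-fold and 10.8-fold. Ifitm6 was 8.31-fold and 8.81-fold higher and C5ar1, the receptor for complement C5a, 6.65-fold and 8.15-fold. For G0s2, an inhibitor of triglyceride lipolysis, the values were 5.56-fold and 3.34-fold, and for Lrg1 5.80-fold and 4.60-fold. The 6 genes were proposed as a set with results of these data known, so these folds describe the set and support nothing further.

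The label of mature granulocyte was held against further neutrophil genes. Ly6g, the surface antigen that marks mouse neutrophils, was detected in 18.7% (WT) and 13.6% (KO) of granulocyte-like cells and in 1.38% and 1.497% of the other kept cells. Cxcr2, the chemokine receptor of neutrophils that leave the marrow, was detected in 4.86% (26 cells) and 1.46% (3 cells), against 0.811% and 0.180%. Il1b, an inflammatory cytokine of activated neutrophils, was detected in 1.495% (8 cells) and 0.971% (2 cells). Csf3r, the G-CSF receptor, stood at 28.9 and 30.5 CPM in granulocyte-like cells and at 22.1 and 25.1 CPM in the others. Ly6g was thus detected more often in the group, whereas Csf3r stood at like levels in and out of the group and Cxcr2 and Il1b UMIs were rare. The cells are called granulocyte-like here, without a claim of full maturity.

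Each gene was compared between the granulocyte-like cells and all other kept cells of the same library, which gives 2 values per gene that are not replicates. A gene was called higher or lower when it differed by 2-fold or more, the same way in both libraries. Of 5593 genes with 100 or more UMIs in each library, rule genes left out, 141 (2.52%) were called higher and 1231 (22.0%) lower. The UMIs of the granulocyte-like cells themselves counted toward that minimum. The median gene was lower by 0.61 (WT) and 0.57 (KO) on the log2 scale. A few genes took up much of the RNA of these cells: Ngp, Camp, S100a8 and S100a9 together gave 23.8% (WT) and 22.7% (KO) of their UMIs, against 5.82% and 6.65% in the other cells. Relative to the median gene, 401 genes (7.17%) were 2-fold higher and 429 (7.67%) lower, so that 48.3% of the calls were higher, in place of 10.3%. Values below are shares of all UMIs, before that shift.

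**Figure D2:**
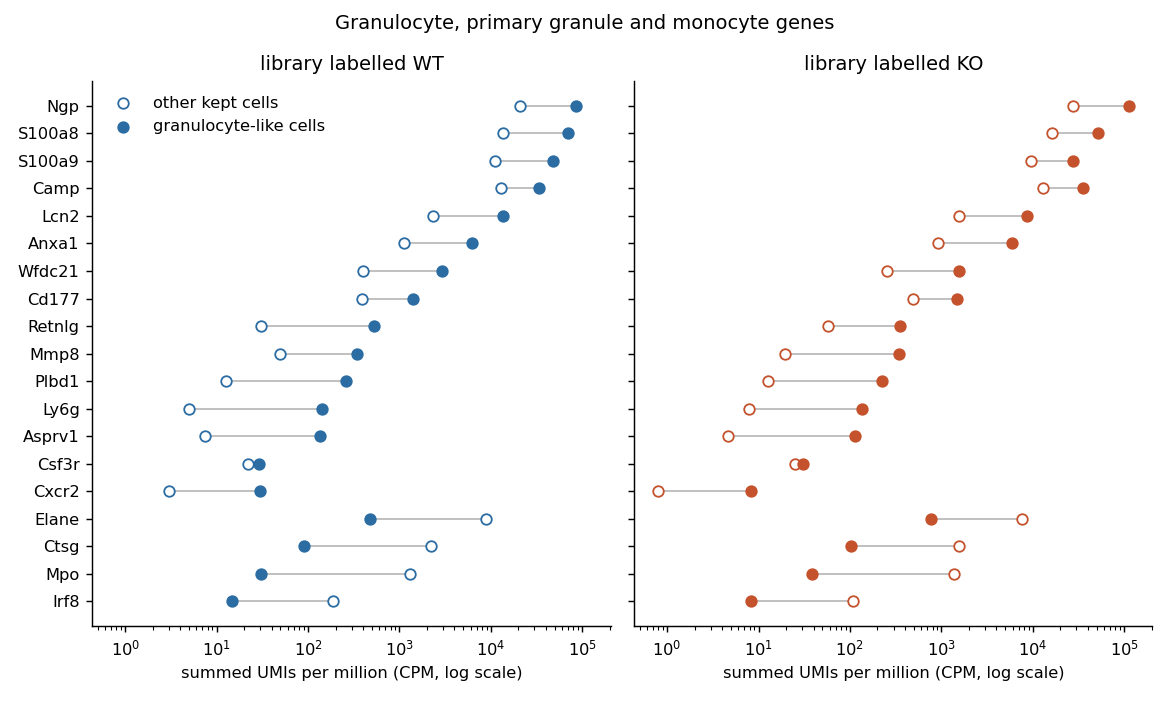
Summed CPM (log axis) of granulocyte, primary granule and monocyte genes in granulocyte-like cells (filled) and other kept cells (open), with 1 panel per library. Ngp reached 85911 and 112530 CPM in the granulocyte-like cells, Csf3r hardly differed, and Elane, Ctsg, Mpo and Irf8 were lower in them.

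Secondary granule genes filled much of the RNA of these cells. The 14 genes of the list found in the matrix, Ltf left out, gave 18.1% (WT) and 20.5% (KO) of the UMIs of granulocyte-like cells. In the other cells they gave 7.02% and 6.67% (log2 1.36 [1.36, 1.37] and 1.62 [1.61, 1.63]). Of the 13 measured genes 9 were called higher and 0 lower, beside 2.52% higher over all measured genes. Ngp, neutrophilic granule protein, stood at 85911 against 20647 CPM (WT) and at 112530 against 27572 CPM (KO). Camp, the antimicrobial cathelicidin, stood at 33380 against 12779 CPM and at 35199 against 12985 CPM. Lcn2, the lipocalin that binds bacterial siderophores, stood at 13537 against 2310 CPM and at 8582 against 1546 CPM. Lyz2, lysozyme, was 2.79-fold and 4.04-fold higher, and Cd177, a neutrophil surface glycoprotein, 3.56-fold and 2.99-fold. The 4 not called were Chil3, Cyba, Cd24a and Hp. Chil3, a chitinase-like lectin, was already abundant outside the group, at 25885 against 23380 CPM (WT) and 27002 against 15227 CPM (KO).

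The upstream sequences of 4 of these granule genes are shown because they carry, or lack, the letters TTGCNNAA of the C/EBP family, the transcription factors of granulocyte differentiation. Each is the 250 bases before the RefSeq transcription start (GRCm38.p6), 5′ to 3′ on the gene's own strand, with matches on either strand in capitals. Ltf lies on the plus strand (chr9:111019042-111019291), Ngp on the plus strand (chr9:110419558-110419807), Lcn2 on the minus strand (chr2:32387740-32387989) and Camp on the minus strand (chr9:109849457-109849706).
Ltf: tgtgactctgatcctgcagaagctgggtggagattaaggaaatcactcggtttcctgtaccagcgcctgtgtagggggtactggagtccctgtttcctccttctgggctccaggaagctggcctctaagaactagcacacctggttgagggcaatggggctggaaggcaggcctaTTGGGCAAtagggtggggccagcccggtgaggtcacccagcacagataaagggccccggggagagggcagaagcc
Ngp: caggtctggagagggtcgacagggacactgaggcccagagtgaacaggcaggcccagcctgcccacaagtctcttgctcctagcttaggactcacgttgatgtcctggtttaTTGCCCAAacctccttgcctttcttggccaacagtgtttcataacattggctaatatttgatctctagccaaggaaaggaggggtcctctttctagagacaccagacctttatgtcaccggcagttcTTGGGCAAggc
Lcn2: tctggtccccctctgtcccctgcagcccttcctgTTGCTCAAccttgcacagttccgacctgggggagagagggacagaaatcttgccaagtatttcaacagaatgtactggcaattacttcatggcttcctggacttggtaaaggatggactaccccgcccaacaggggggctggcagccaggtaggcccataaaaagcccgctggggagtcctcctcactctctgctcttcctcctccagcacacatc
Camp: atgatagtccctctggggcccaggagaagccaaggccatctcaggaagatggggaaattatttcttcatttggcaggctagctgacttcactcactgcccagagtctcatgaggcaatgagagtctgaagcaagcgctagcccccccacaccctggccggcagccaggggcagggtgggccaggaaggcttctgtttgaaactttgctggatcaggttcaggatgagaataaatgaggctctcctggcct
Ltf had 1 match, Ngp 2, Lcn2 1 and Camp 0. A window with TTGCNNAA was found for 19 of the 113 higher genes that matched the sequence table (16.8%), for 80 of 936 lower genes (8.55%), for 422 of 4339 matched measured genes (9.73%, which counts the rule genes) and for 3142 of all 32851 windows (9.56%). The letters GAGGAAG of PU.1, the factor encoded by Spi1, were found in 29 of the 113 (25.7%), 123 of the 936 (13.1%), 586 of the 4339 (13.5%) and 3486 of all windows (10.6%). A match is a description of these letters, and binding was not measured.

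Tertiary granule genes were higher as well. Of 7 measured genes besides the rule gene Mmp9, 5 were called higher (Mmp8, Itgb2, Cd33, Pglyrp1 and Padi4) and 0 lower. Over all measured genes 2.52% were called higher. The 14 genes of the list found in the matrix, Mmp9 left out, summed to 9298 against 3510 CPM (WT) and 9922 against 4105 CPM (KO). Mmp8, neutrophil collagenase, stood at 346 against 49.3 CPM (WT) and at 341 against 19.7 CPM (KO), and its UMIs were seen in 22.2% and 17.5% of granulocyte-like cells. Mmp8 was not particular to them: among 741 other kept cells with the highest shares of the monocyte genes Irf8 and Ms4a6c it was seen in 20.1% (WT) and 5.43% (KO), at 179 and 41.9 CPM. Pglyrp1, a peptidoglycan recognition protein, was 3.10-fold and 2.66-fold higher. Fcnb, ficolin B, which is made early in granulocyte maturation, stood at 1020 against 827 CPM (WT) and 2055 against 1213 CPM (KO) and was not called. Hpse, heparanase, was not called either, but it was lower in the group, with a mean log2 ratio of the 2 libraries of -1.38.

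The late neutrophil list had 12 of 23 measured genes called higher and 1 lower, beside 2.52% and 22.0% over all measured genes. It gave 14.3% (WT) and 9.99% (KO) of the UMIs of granulocyte-like cells against 3.34% and 3.42% in the others. S100a8 and S100a9, the subunits of calprotectin, dominated it. S100a8 stood at 70681 against 13637 CPM (WT) and 51281 against 16420 CPM (KO), and S100a9 at 47550 against 11096 CPM and 27864 against 9508 CPM. S100a6 was 6.36-fold and 4.31-fold higher and S100a11 2.63-fold and 2.12-fold. The lower gene was Clec4d, a C-type lectin, with 1 UMI (WT) and 0 UMIs (KO) in granulocyte-like cells, at 10.0 and 19.4 CPM in the others. Within the granulocyte-like cells the sum of the late neutrophil list was lower in those labelled KO than in those labelled WT (log2 -0.52). In the other kept cells it was slightly higher in those labelled KO (3.42% against 3.34%).

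The 15 named genes had the largest folds in both libraries. The minimum of 100 UMIs was counted over all kept cells, so a gene could pass it through the group where it was high. Ly6g passed only with its 153 (WT) and 49 (KO) UMIs from granulocyte-like cells, and Plbd1 in the library labelled KO only with its 80. Their rank is a description and no support for the label. Plbd1, a phospholipase B-like protein, stood at 258 against 12.7 CPM (WT) and 222 against 12.7 CPM (KO). Ly6g was 28.5-fold (WT) and 17.4-fold (KO) higher. Ceacam10, a carcinoembryonic antigen-related protein, stood at 247 against 17.6 CPM and 388 against 25.4 CPM. Retnlg, resistin-like gamma, was 17.2-fold and 6.04-fold higher. Its UMIs were uneven, with 41.3% and 61.1% of them in the 5 cells that held most. Anxa1, the anti-inflammatory phospholipid-binding annexin A1, was abundant at 6208 against 1114 CPM (WT) and 5864 against 908 CPM (KO). Wfdc21 stood at 2952 against 404 CPM and 1557 against 256 CPM, and AA467197 at 530 against 38.9 CPM and 305 against 46.3 CPM. Orm1, an acute-phase protein, Pirb, an inhibitory receptor of myeloid cells, and Adpgk, an ADP-dependent glucokinase, were also among them, with 368 against 80.9 CPM (WT) and 321 against 72.8 CPM (KO) for Adpgk, and 189 and 188 CPM for Orm1 and 281 and 180 CPM for Pirb in the granulocyte-like cells.

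The stefin A genes, cytosolic inhibitors of cysteine proteases, had 5 of 7 measured members called higher and 0 lower. Over all measured genes 2.52% were called higher. Stfa2 stood at 370 against 35.8 CPM (WT) and 202 against 14.0 CPM (KO), and Stfa3 at 345 against 41.4 CPM and 230 against 37.6 CPM. BC100530 stood at 6729 against 2262 CPM and 4374 against 1004 CPM. The UMIs were uneven: in the library labelled KO the 5 highest cells held 50.7% of 73 Stfa2 UMIs and 56.6% of 83 Stfa3 UMIs. The median granulocyte-like cell held 2 (WT) and 0 (KO) stefin A UMIs. The stefin A genes are near-identical copies, so reads may be split between them and single members are uncertain. Their sum stood at 11080 (WT) and 7471 (KO) CPM in granulocyte-like cells. In the 741 other kept cells with the highest shares of Camp and Ngp it stood at 15480 and 5461 CPM. Stefin A RNA was thus not particular to the group. Of the 6 measured NADPH oxidase subunits, only Cybb, the catalytic gp91phox, was called, at 736 against 268 CPM (WT) and 485 against 173 CPM (KO).

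Primary granule genes were lower. Of 14 measured genes, 0 were called higher and 10 lower, beside 22.0% lower over all measured genes. Their summed level was 6374 against 22790 CPM (WT) and 7016 against 20290 CPM (KO). Mpo, myeloperoxidase, stood at 30.8 against 1317 CPM (WT) and 38.8 against 1363 CPM (KO), 42.8-fold and 35.2-fold lower. Elane, neutrophil elastase, stood at 482 against 8822 CPM and 773 against 7702 CPM. Ctsg, cathepsin G, stood at 90.5 against 2189 CPM and 102 against 1552 CPM, and Prtn3, proteinase 3, was 4.96-fold and 5.68-fold lower. Serpinb1a, Igsf6, Cd63 and Srgn were not called. Serpinb1a, an inhibitor of the granule proteases, stood at 2237 against 1905 CPM (WT) and 2288 against 1705 CPM (KO). The proteases and myeloperoxidase were low in these cells while their inhibitor was not. Against the overall log2 ratios of -1.84 (WT) and -1.53 (KO), the list differed by -0.49 and -1.13 between cells of 1000 to under 1500 UMIs, by -0.91 and -1.53 at 1500 to under 2500 UMIs and by -1.85 and -1.46 at 2500 UMIs or more.

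Genes of growth and protein synthesis were lower. Of 13 measured nucleolar growth genes, 12 were called lower and 0 higher, beside 22.0% lower over all measured genes. The list sum was 417 against 2153 CPM (WT) and 651 against 2315 CPM (KO). Npm1, nucleophosmin, stood at 127 against 650 CPM and 222 against 795 CPM, and Fbl, the nucleolar methyltransferase fibrillarin, was 6.88-fold and 4.84-fold lower. Of 25 translation factors, 13 were called lower and 0 higher, again beside 22.0% lower over all measured genes. The log2 ratio of their sum was -1.09 (WT) and -0.80 (KO), beside -0.61 and -0.57 for the median gene. Much of the lower translation sum was thus shared with the median gene. Of 12 glycolysis enzymes, 0 were called in either direction (log2 0.02 and -0.06). Against the median gene, which was itself lower by 0.61 and 0.57, the glycolysis sum was therefore higher.

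**Figure D3:**
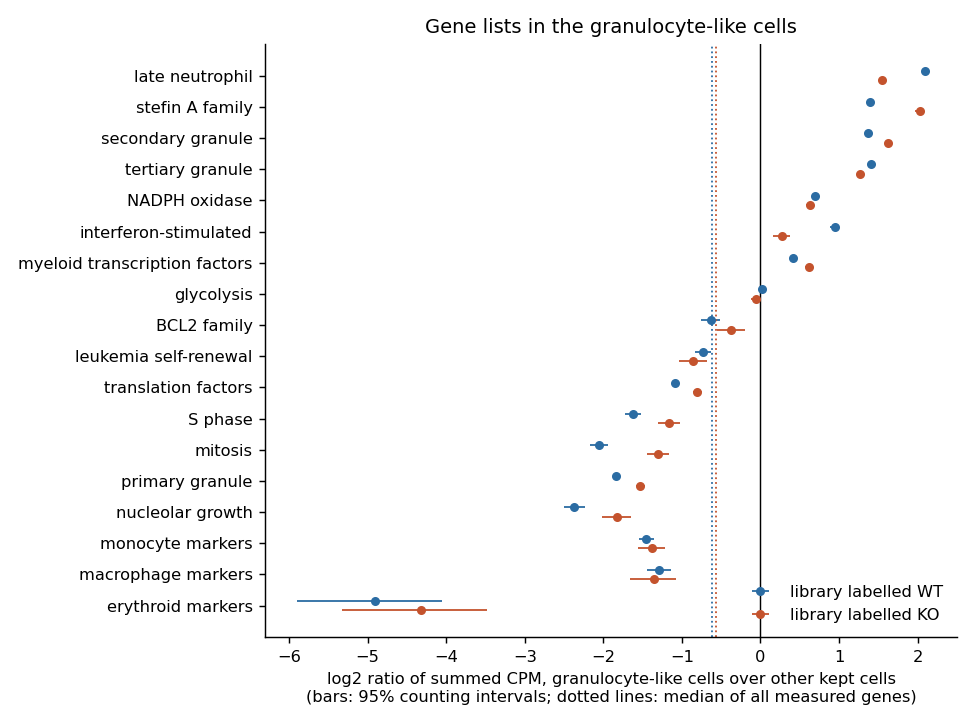
Log2 ratio of summed CPM, granulocyte-like cells over other kept cells, for 18 gene lists, with 1 point per library and bars for 95% counting intervals. Dotted lines are the median of all measured genes. Secondary granule, tertiary granule, stefin A and late neutrophil lists lie right of 0 and mitosis, nucleolar growth and erythroid lists left of the dotted lines in both libraries.

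Cell cycle genes were low in most granulocyte-like cells. Over all measured genes 22.0% were called lower. Of 22 measured mitosis genes 16 were called lower and 0 higher. Their sum was 608 against 2529 CPM (WT, log2 -2.06 [-2.17, -1.94]) and 1230 against 3036 CPM (KO, -1.30 [-1.44, -1.17]). Of 20 S phase genes 16 were called lower and 0 higher (log2 -1.62 and -1.16). Cdk1, the mitotic kinase, stood at 28.0 against 171 CPM and 60.9 against 223 CPM, and Rrm2, the ribonucleotide reductase subunit, at 85.8 against 317 CPM and 127 against 395 CPM. With each cell thinned to 1000 UMIs, 7.71% (WT, 5.59 to 10.3%) and 14.6% (KO, 10.1 to 20.2%) of granulocyte-like cells held 2 or more mitosis UMIs, against 33.9% and 41.8% of other cells (unthinned, 14.6% and 21.8% against 53.1% and 54.0%). A minority of the granulocyte-like cells thus held 2 or more mitosis UMIs.

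At a fixed limit of the rule the mitosis list was lower in granulocyte-like cells at each depth. The log2 ratio was -2.10, -2.04 and -1.16 in the library labelled WT, and -0.98, -1.05 and -1.08 in that labelled KO, at 1000 to under 1500, 1500 to under 2500 and 2500 or more UMIs. Among cells with 1000 or more genes it was -0.72 and -0.49, over 41 and 11 granulocyte-like cells. When the 10% of highest share were instead chosen among cells with 1000 or more genes, the limit dropped to 0.210% and the mean log2 ratio of the mitosis list turned to 0.31. Of the 316 cells so chosen 52 were granulocyte-like by the original rule.

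Other kept cells with the highest shares of Camp and Ngp served as a comparison group, of which the same number, 741, was taken (354 WT, 387 KO). They were deeper than the granulocyte-like cells, with a median of 2630 (WT) and 1980 (KO) UMIs against 1841 and 1583. Their summed secondary granule level of 212300 and 209900 CPM was used to choose them and is given as a description. Their mitosis sum was 2698 and 3486 CPM, against 608 and 1230 CPM in the granulocyte-like cells, and 41.5% and 49.6% of them held 2 or more mitosis UMIs after thinning. Mmp8 stood at 6.10 and 5.83 CPM in the Camp and Ngp cells and at 346 and 341 CPM in the granulocyte-like cells, and Retnlg at 20.3 and 58.3 CPM against 534 and 349 CPM. Elane stood at 1482 and 1975 CPM, against 482 and 773 CPM. The primary granule sum was closer, at 7718 and 9248 CPM against 6374 and 7016 CPM, with 22790 and 20290 CPM over all other kept cells. Low primary granule RNA was thus largely shared by the 2 groups. The late neutrophil sum was 86420 and 78420 CPM, against 142900 and 99920 CPM. Both groups were rich in secondary granule RNA, and they differed in mitosis genes, Mmp8 and Retnlg in both libraries.

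Most myeloid transcription factors stood under the 2-fold limit. Of 17 measured myeloid factors 0 were called higher and 2 lower, Irf8 and Klf4, which drive monocyte fate. Over all measured genes 22.0% were called lower. Irf8 stood at 14.9 against 187 CPM (WT) and 8.31 against 108 CPM (KO). Cebpe, the factor needed for secondary granules, stood at 769 against 505 CPM and 814 against 491 CPM, and Spi1, encoding PU.1, at 962 against 671 CPM and 997 against 721 CPM. Klf2 stood at 3296 against 1933 CPM and 4681 against 2097 CPM. Klf4 stood at 1.87 against 20.7 CPM and 2.77 against 18.1 CPM. Cebpa, the factor of granulocyte-monocyte progenitors, stood at 9.33 against 26.7 CPM and 11.1 against 21.2 CPM, and Gfi1, a repressor needed for neutrophils, at 33.6 against 60.1 CPM and 27.7 against 40.6 CPM, neither called. The sum of the list was higher by log2 0.41 and 0.61, but at 1000 to under 1500 UMIs it was -0.31 (WT) and 0.17 (KO), so its direction in the library labelled WT followed depth.

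Genes of leukemia self-renewal stood near the background. Of 16 measured genes 5 were called lower (Sox4, Cd34, Flt3, Bcl2 and Zeb2) and 0 higher, beside 22.0% lower over all measured genes, with log2 ratios of the sum of -0.73 and -0.86 beside -0.61 and -0.57 for the median gene, and a sum of 835 against 1384 CPM (WT) and 740 against 1339 CPM (KO). Cd34, a progenitor surface antigen, was detected in 0.374% (2 cells) and 1.94% (4 cells) of granulocyte-like cells and in 7.17% and 12.0% of the others. Flt3, a progenitor cytokine receptor, had 1 and 2 UMIs in them. Hoxa9, a homeobox gene that MLL fusions keep active, stood at 114 against 186 CPM (WT) and 102 against 121 CPM (KO) and was not called, nor was its partner Meis1, at 34.5 against 45.1 CPM and 27.7 against 38.4 CPM. Summed over the group, Hoxa9 was thus under 2-fold below the rest of the leukemia. Among those with the highest rule-gene share (182 WT and 65 KO cells) it was lower, at 82.1 CPM (WT, 28 UMIs) and 18.6 CPM (KO, 2 UMIs). In the library labelled KO the group's log2 ratio of -0.24 for Hoxa9, like the -0.47 of Meis1, lay above that of the median gene (-0.57). Of 10 BCL2 family genes 2 were called lower and 0 higher, a share no larger than the 22.0% over all measured genes, while Mcl1, the survival factor of granulocytes, stood at 112 against 63.2 CPM and 122 against 64.6 CPM.

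Markers of most other cell types were low in sum. Of 11 monocyte markers 9 were called lower and 0 higher, and the list sum was 869 against 2384 CPM (WT) and 809 against 2113 CPM (KO). Ms4a6c, a monocyte membrane protein, stood at 13.1 against 221 CPM and 2.77 against 302 CPM. Of 6 macrophage markers 2 were called lower and 0 higher, beside 22.0% lower over all measured genes. The list sum was 345 against 843 CPM (WT) and 288 against 740 CPM (KO). The median macrophage marker stood at log2 -0.83 and -0.37, beside -0.61 and -0.57 for the median of all measured genes. Apoe, the lipid carrier of macrophages, had 72.8% and 73.3% of its UMIs in the 5 granulocyte-like cells that held most. All 5 measured erythroid genes were called lower, at 10.3 against 307 CPM and 30.5 against 610 CPM. Much of the erythroid gap lay in deep cells: at 2500 UMIs or more the other cells stood at 374 (WT) and 1191 (KO) CPM, while at 1500 to under 2500 UMIs the list stood at 5.11 against 74.5 CPM (WT) and 29.6 against 33.6 CPM (KO). Mcpt8, the protease of basophils, had 0 UMIs in 535 and 206 granulocyte-like cells and was detected in 5.46% and 5.36% of the others. Hdc, histidine decarboxylase, is on the basophil and mast cell list and was called higher, at 49.4 against 11.7 CPM and 80.3 against 27.1 CPM, whereas Mcpt8 and Cpa3 were called lower. Dendritic markers stood at 28.0 against 173 CPM and 88.6 against 883 CPM. Eosinophil markers had 2 of 3 measured genes called lower, the B cell list 1 of 1 and the megakaryocyte list 0 of 1. Beside 22.0% lower over all measured genes, counts over so few genes say little about these cell types. No T or NK marker passed the minimum of UMIs.

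Of 5 measured interferon-stimulated genes 1 was called higher, Ifitm1, and 1 lower, Bst2, beside 2.52% and 22.0% over all measured genes. Bst2 stood at 13.1 against 55.5 CPM (WT) and 13.8 against 76.6 CPM (KO). Ifitm1 stood at 80.2 against 16.6 CPM (WT) and 66.5 against 18.1 CPM (KO). In the library labelled KO its 24 UMIs came from 6 cells, with 95.8% of them in 5 cells. There, at 1000 to under 1500 UMIs per cell, Ifitm1 stood at 17.6 against 37.8 CPM, over 2 UMIs. Mitochondrially encoded RNA made up 0.210% (WT) and 0.313% (KO) of the UMIs of granulocyte-like cells, against 0.390% and 0.473% in the others. It was lower beside every gene group above, and its part in those results was not tested.

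Levels were then followed along the rule-gene share, in 4 bins of other kept cells and 3 bins of granulocyte-like cells. The 3 bins held 167, 186 and 182 cells labelled WT and 80, 61 and 65 labelled KO. Elane was lower in each successive bin within the granulocyte-like cells, at 785, 470 and 170 CPM (WT) and 1263, 555 and 343 CPM (KO). The mitosis sum stood at 1066, 550 and 179 CPM (WT) and 2142, 928 and 325 CPM (KO). Lcn2 was higher from bin to bin, at 11050, 13540 and 16210 CPM and at 6844, 8578 and 10900 CPM. Hoxa9 stood at 166, 90.7 and 82.1 CPM (WT) and 181, 81.9 and 18.6 CPM (KO), the last over 2 UMIs. Camp showed no such order within the group, at 33320, 30870 and 36120 CPM (WT) and 31350, 39210 and 36230 CPM (KO). Cebpe varied little, at 796, 769 and 739 CPM (WT) and 830, 855 and 752 CPM (KO). The cells with the highest share were therefore lowest in Elane and mitosis genes in both libraries. Depth moved with the order, with median UMIs of 1974, 1824.5 and 1748 (WT) and 1660.5, 1595 and 1521 (KO) in the 3 bins. The order is a description with no test.

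**Figure D4:**
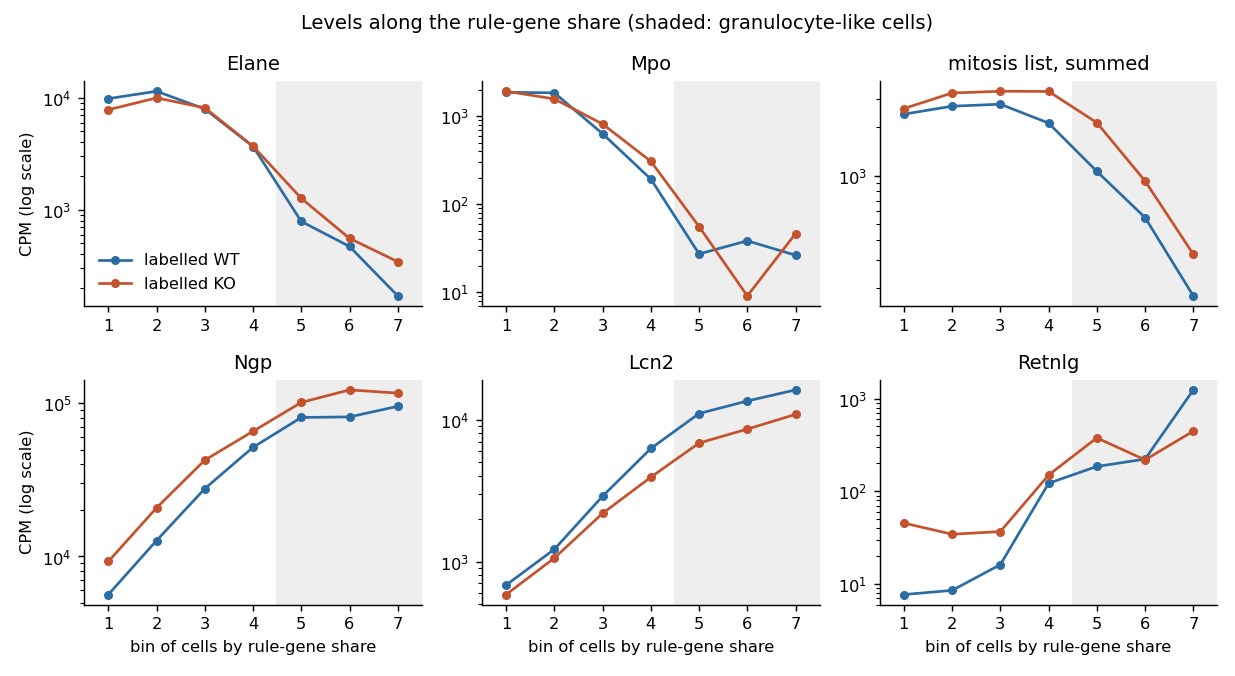
Summed CPM (log axes) of 5 genes and of the mitosis list in 7 bins of cells ordered by their share of rule-gene UMIs, bins 5 to 7 (shaded) being the granulocyte-like cells, 1 line per library. In bin 7 Elane stood at 170 (WT) and 343 (KO) CPM and the mitosis list at 179 and 325 CPM.

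Granulocyte-like cells can be divided by Ltf. Since Ltf is a rule gene, cells without it passed the limit through the other 5 genes, and the values are a description of how the rule filled the group. An Ltf UMI was found in 316 cells labelled WT and 176 labelled KO, and none in 219 and 30. Camp stood at 39990 CPM with Ltf against 23110 without (WT) and 38270 against 14570 CPM (KO). Elane went the other way, at 262 against 824 CPM and 617 against 1816 CPM. The mitosis sum was higher with Ltf, at 748 against 391 CPM (WT) and 1283 against 876 CPM (KO). S100a8 stood at 71030 against 70140 CPM (WT) and 52840 against 40810 CPM (KO). Median depth was 1865 against 1752 UMIs (WT) and 1608 against 1438.5 UMIs (KO), so cells with an Ltf UMI were also somewhat deeper.

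A smaller set carried Retnlg: 88 cells labelled WT (16.5%) and 31 labelled KO (15.05%). Mmp8 stood at 996 CPM with Retnlg against 222 without (WT, log2 2.17 [1.86, 2.47]) and 1025 against 203 CPM (KO, 2.34 [1.80, 2.87]). Ly6g stood at 245 against 123 CPM and 281 against 106 CPM. Of the 32 Cxcr2 UMIs in granulocyte-like cells labelled WT, 20 were in cells with Retnlg. Camp was lower with Retnlg, at 28950 against 34220 CPM (WT) and 31180 against 36010 CPM (KO). The cells with Retnlg were thus richer in Mmp8 and Ly6g, with secondary granule sums close to those of the rest (log2 -0.06 and -0.15). Among the cells under 500 genes that met the limit, Retnlg stood at 3117 (WT) and 2399 (KO) CPM and the mitosis sum at 199 and 398 CPM, so the filter on genes left out cells with more Retnlg and fewer mitosis transcripts than those kept.

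The libraries were compared within the granulocyte-like cells, as the study's question on Kat2a implies. Of 1607 genes with 100 or more UMIs in these cells, 27 (1.68%) were 2-fold or more higher in the library labelled KO and 22 (1.37%) lower. For the same genes in the other kept cells, 4 (0.249%) were higher and 13 (0.809%) lower, and 3 and 5 genes were shared. Of the 27 and 22 genes, 26 and 22 had the same sign in the other kept cells, most of them at under 2-fold there. A difference between pools cannot be told apart from one between genotypes, leukemias or library runs.

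Chil1, a chitinase-like protein stored in neutrophil granules, stood at 54.1 CPM (58 UMIs) in granulocyte-like cells labelled WT and 260 CPM (94 UMIs) in those labelled KO (log2 2.27 [1.78, 2.76]), and its log2 ratio in the other cells was 1.78. Within the 3 bins of rule-gene share the log2 ratio was 2.16, 2.31 and 2.45, but among granulocyte-like cells under 1500 UMIs it was 0.80 [-0.25, 1.87], over 16 and 18 UMIs. Fcnb stood at 1020 and 2055 CPM (log2 1.01 [0.87, 1.15]), with 0.55 in the others. Cd81, a tetraspanin, stood at 587 and 1360 CPM (1.21 [1.04, 1.39]), with 0.83 in the others. H1f0, a linker histone, stood at 197 and 438 CPM (1.15 [0.85, 1.46]), with 0.25 in the others. Summed over cells, these genes were higher in the labelled KO pool inside and outside the group. For H1f0 the gap was uneven, with log2 ratios of 1.32, 0.19 [-0.47, 0.82] and 1.79 in the 3 bins of rule-gene share. Serinc3, a membrane lipid protein, stood at 128 and 305 CPM and the predicted gene Gm8797 at 553 and 1199 CPM, with log2 ratios of 1.25 and 1.12 here and 1.32 and 1.24 in the other cells. H3f3b, a histone variant, and Ptma, a chromatin-associated acidic protein, were under 2-fold (log2 0.99 and 0.90).

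Hspa2, a heat shock protein, showed the largest gap in the other direction. It had 326 UMIs (304 CPM) in granulocyte-like cells labelled WT and 11 UMIs (30.5 CPM) in those labelled KO (log2 -3.32 [-4.34, -2.46]), and was seen in 30.3% and 4.37% of the cells. In the other kept cells it stood at 116 and 109 CPM (log2 -0.08 [-0.21, 0.05]). Its level also differed with Ltf, which the libraries held in different proportions. Granulocyte-like cells with an Ltf UMI (316 WT, 176 KO) had 193 and 35.0 CPM of Hspa2 (-2.46 [-3.50, -1.58]). Those without one (219 and 30 cells) had 476.5 CPM labelled WT and 0 UMIs labelled KO. Cdkn2c, the CDK inhibitor p18, stood at 499 and 180 CPM (-1.47 [-1.87, -1.10]), with -0.72 in the others. Ptprc, the leukocyte antigen CD45, had 142 and 12 UMIs (-1.99 [-2.98, -1.14]), with -0.87 in the others. Iqgap1, a cytoskeletal scaffold protein, and Wfdc17 stood at 150 and 49.9 CPM and at 165 and 49.9 CPM. Xist, the RNA of the inactive X chromosome, stood at 103 and 27.7 CPM, and Apoe at 127 and 41.5 CPM with most UMIs in few cells. Hspa2 was the one of these 7 whose interval in the other cells reached 0.

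**Figure D5:**
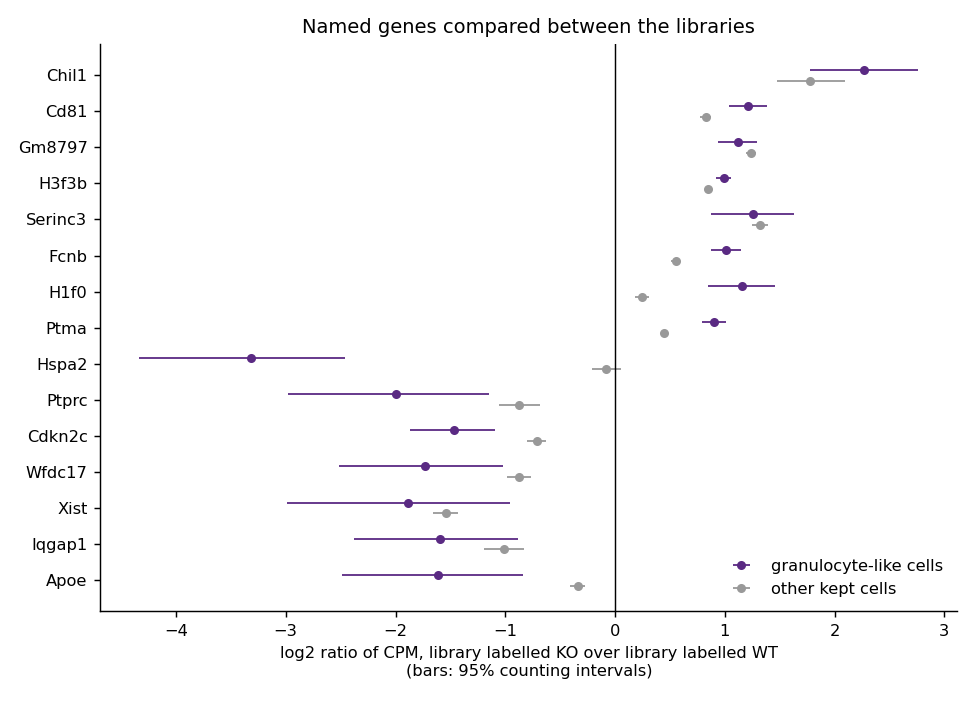
Log2 ratios of the labelled KO to the labelled WT level for 15 named genes, in granulocyte-like cells and in other kept cells, with 95% counting intervals as bars. Chil1 stood at 2.27 and 1.78, and Hspa2 at -3.32 in granulocyte-like cells but -0.08 in the others.

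Gene groups differed between the libraries as well. The mitosis sum was 608 CPM in granulocyte-like cells labelled WT and 1230 CPM in those labelled KO (log2 1.02 [0.84, 1.19]), and the S phase sum 717 and 1180 CPM (0.72). Within the 3 bins of rule-gene share the mitosis log2 ratio was 1.01, 0.76 and 0.86, and among cells under 1500 UMIs it was 1.22. In the other kept cells the mitosis sums were 2529 and 3036 CPM. The stefin A sum stood at 11080 CPM (labelled WT) and 7471 CPM (labelled KO), a log2 ratio of -0.57, and at 4223 and 1834 CPM in the other kept cells. S100a9 stood at 47550 and 27864 CPM (11096 and 9508 CPM in the others) and Lcn2 at 13537 and 8582 CPM (2310 and 1546 CPM in the others), whereas Ngp stood at 85911 and 112530 CPM (20647 and 27572 CPM in the others). The secondary granule sum differed little (log2 0.18), as did that of primary granules (0.14). Granulocyte-like cells labelled KO thus had more Ngp and mitosis RNA and less S100a9, Lcn2 and stefin A RNA than those labelled WT. Each of these differences had the same direction in the other kept cells. S100a8 did not: it gave 7.07% (WT) and 5.13% (KO) of the UMIs of granulocyte-like cells but 1.36% and 1.64% in the others. The late neutrophil sum also differed in direction, at 142900 and 99920 CPM in granulocyte-like cells and 33350 and 34160 CPM in the others.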

How the data were processed

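Single-cell RNA was captured with a 10x Genomics 3′ kit from live sorted YFP+ leukemia cells, aiming at 6000 cells per library. The authors deposited UMI counts per gene and cell (27998 genes, 8309 cells) made with Cell Ranger on mm10. The submitters' processing notes name version 1.3.1 and the study's methods a later release. Both libraries share 1 matrix, and barcode suffixes were assigned to genotypes from the study's published code, since the sample labels do not give them. The deposited counts were not normalized.

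The granulocyte-like cells and all gene lists were chosen with earlier results of these data known. UMIs were summed over cells per library and group and scaled to 1000000 (CPM). Genes with 100 or more UMIs in each library over the kept cells were compared, and genes with 100 or more UMIs over the granulocyte-like cells were compared between libraries. A zero was set to a floor of 3 counts. Intervals of log2 ratios are exact conditional binomial, those of shares exact Clopper-Pearson (95%), and cover counting error alone. No test was run, with 1 library per genotype, and cells are not replicates. Total UMIs per cell and thinning to 1000 UMIs served to compare depths. The named genes are the 15 higher and 10 lower genes with the largest smaller fold of the 2 libraries, and the 8 genes each way between libraries with the interval bound farthest from 0, besides members of the lists. Of these, 1 of the library genes is not reported here. Of 348 list genes 343 matched a symbol in the matrix. The sum of a list covers all its matched genes, rule genes left out, also those with too few UMIs to be called. Scrublet in scanpy 1.11.5 called 5 cells (0.0602%) as doublets and so did not work as a caller, so the cells with the highest 5% of scores were left out as an alternative. Scripts used Python 3.11.15, numpy 2.4.6, scipy 1.17.1 and pandas 2.3.3, and were tested on simulated counts. Alternatives covered the choice of cells, depth, scaling, filters and the fold.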

Additional observations from a re-analysis of the deposited data

Results flagged for a closer look

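Cells with under 500 genes, which are outside the kept cells, carried the rule genes at high shares. The limit was met by 73.4% of them in the library labelled WT and by 48.1% in that labelled KO, against 13.8% and 5.81% of the kept cells.

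A set of 9 genes differed by 2-fold or more between granulocyte-like and other cells in opposite directions in the 2 libraries, and the difference between libraries was not tested. Hspa2 had a log2 ratio of 1.40 in the library labelled WT and -1.84 in that labelled KO, over 326 and 11 UMIs. Rassf2 had 1.52 and -2.51 over 39 and 1 UMIs. The other genes were lower in the library labelled WT and higher in that labelled KO. Atp1b1 had -1.35 and 1.32, Gm15417 -1.10 and 1.08, Prpf4 -2.35 and 1.02, and Rasal3 -1.58 and 1.13, each over 3 to 18 UMIs per library. Sel1l had -1.23 and 1.20, with 57.9% of its 19 UMIs in the library labelled KO in a single cell and 8 UMIs without it. Hddc2 had -1.77 and 1.07, with 81.4% of its 43 UMIs in the library labelled KO in a single cell. Cbll1 had -3.62 and 2.31, with 63.6% of its 22 UMIs there in a single cell.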

How the results depend on the processing

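No paired analysis was possible because each genotype has 1 library. Leaving out replicates was not possible for the same reason. The share of granulocyte-like cells was higher in the library labelled WT under every alternative run, but its log2 ratio of -1.25 moved to -0.83 with cells chosen after thinning, -0.80 with the highest 20%, -1.59 without Ltf in the rule, -0.61 in cells with 1000 or more genes, -0.31 over all deposited cells and, chosen after seeing the data, -0.40 over all deposited cells at the original limit. The 141 higher and 1231 lower genes became 80 and 674 with every cell thinned, 401 and 429 relative to the median gene, 54 and 227 in cells with 1000 or more genes, 91 and 712 at 300 UMIs, 284 and 2157 at 1.5-fold and 47 and 431 at 3-fold, and 635 were lower with the highest 20%. Between libraries, the 27 higher genes became 45 with cells chosen after thinning, 14 with the highest 5%, 17 in cells with 1000 or more genes and 17 over all deposited cells (chosen after seeing the data), and the 22 lower genes became 13 with every cell thinned. Higher and lower genes between libraries became 79 and 59 with the highest 20%, 107 and 39 with the 10% taken within each library, 191 and 222 at 30 UMIs, 5 and 3 at 300 UMIs, 172 and 131 at 1.5-fold and 1 and 8 at 3-fold. The cause of these moves was not tested, apart from the fold and UMI limits, whose construction sets the counts.

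Choosing among cells with 1000 or more genes also turned the mean log2 ratio of the mitosis list to 0.31, of the macrophage list to 0.11 and of Apoe to 0.27, and the Apoe log2 ratio between libraries to 0.72. Of the other values under alternatives, 701 of the single genes, 141 of the lists and 141 of the library comparisons moved by less than their counting interval and 285, 132 and 34 by more, without a change of sign in a called value. Depth limits these values: granulocyte-like cells held a median of 1841 (WT) and 1583 (KO) UMIs, and genes at a few UMIs, such as Cxcr2 and Cd34, rest on 2 to 26 cells.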
